A study of Mus musculus with 2 samples.

Results

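The anchoring complex of the epidermis was examined through 8 genes: Lama3 and Lamb3, which encode chains of laminin-332, Itga6 and Itgb4, which encode its integrin receptor, Cd151, Col17a1, Dst and Col7a1. Its probes were those whose gene name on the array equals one of these symbols and which are not control spots. This gave 19 of 41174 gene probes, of which 17 could be tested among 23540 tested probes, and all 8 genes could be tested among 13758. On each of 2 two-colour arrays, total RNA of wild-type mouse keratinocytes, labelled with Cy3, was set against total RNA of keratinocytes in which Chuk was deleted through loxP sites, labelled with Cy5. The labels give no strain, age, Cre driver, culture condition or number of animals for either genotype, and they name no dye swap, so dye and genotype cannot be told apart. They number the arrays as replicates, with no word on whether each had its own culture or animal. Every limma p-value therefore reflects array-to-array spread that could be technical, and that spread is drawn in large part from all tested probes together.

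Hemidesmosomes rivet basal keratinocytes to the basement membrane. In them the integrin of the α6 and β4 chains and the transmembrane collagen XVII bind laminin-332 outside the cell, while the plakins BPAG1e (from Dst) and plectin tie them to keratin filaments inside it. Collagen VII forms the anchoring fibrils that fasten the basement membrane to the dermis, and inherited loss of these proteins causes blistering of the skin. Chuk encodes IKKα, a kinase needed for epidermal maturation.

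Both probes of Chuk itself gave a higher signal in the channel labelled Chuk-deleted, which goes against the label. Their log2 ratios were 0.73 and 0.75 for one probe (1.67-fold, adjusted p = 0.000104 by limma, Benjamini-Hochberg over all tested probes) and 0.93 and 0.78 for the other (1.81-fold, adjusted p = 0.000105, same fit). Both also passed as higher after median centring (means 1.35 and 1.32) and by the scanner software's ratio (0.78 and 1.02). On a scale set by the spike-in controls they lay at -0.03 and 0.09 and did not pass the threshold. The median of all tested genes on that scale was -0.74. Where these probes lie relative to the deleted part of the gene is not given in the sources used here, and a probe outside it checks nothing. Every direction reported therefore rests on the channel labels. The arrays shared 1 slide and 1 scan, their median Cy3 signals were 110 and 95.2 and their median Cy5 signals 218 and 172, and from 53.2% to 64.5% of gene spots passed the software's test for signal well above background in a channel.

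The promoters are shown for 3 genes that rose and for Cd151, which did not pass the threshold, so that the sequence before their starts can be set beside their expression. They are the 250 bases before annotated starts in RefSeq (GRCm38.p6), 5′ to 3′ on the gene's strand. Of the 8 genes, 5 matched the promoter table (Lamb3, Col17a1, Col7a1, Dst and Cd151), with 8 windows in all. The windows printed are chr1:193301744-193301993 (+) and chr1:193301993-193302242 (+) for Lamb3, chr19:47692043-47692292 (-) for Col17a1, chr9:108953336-108953585 (+) for Col7a1 and chr7:141467112-141467361 (+) for Cd151. Capitals mark the KLF-type motif CACCC on either strand (GGGTG when read on the other) and, as the longer run in Lamb3 window 2, a match to the NF-kB consensus.
Lamb3 window 1: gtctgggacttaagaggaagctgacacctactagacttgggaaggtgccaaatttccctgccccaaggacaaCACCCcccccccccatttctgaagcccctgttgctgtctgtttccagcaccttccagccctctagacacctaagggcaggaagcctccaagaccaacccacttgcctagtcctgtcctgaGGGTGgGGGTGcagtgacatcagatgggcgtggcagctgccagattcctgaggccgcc
Lamb3 window 2: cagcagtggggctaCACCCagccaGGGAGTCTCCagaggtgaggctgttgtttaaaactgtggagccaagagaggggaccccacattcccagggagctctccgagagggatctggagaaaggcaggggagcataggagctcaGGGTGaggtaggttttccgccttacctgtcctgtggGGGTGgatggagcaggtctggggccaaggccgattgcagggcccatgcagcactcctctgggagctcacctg
Col17a1: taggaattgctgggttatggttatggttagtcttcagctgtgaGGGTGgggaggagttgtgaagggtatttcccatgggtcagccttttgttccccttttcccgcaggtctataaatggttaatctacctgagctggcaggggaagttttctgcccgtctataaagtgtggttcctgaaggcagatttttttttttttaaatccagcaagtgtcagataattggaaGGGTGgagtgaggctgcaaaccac
Col7a1: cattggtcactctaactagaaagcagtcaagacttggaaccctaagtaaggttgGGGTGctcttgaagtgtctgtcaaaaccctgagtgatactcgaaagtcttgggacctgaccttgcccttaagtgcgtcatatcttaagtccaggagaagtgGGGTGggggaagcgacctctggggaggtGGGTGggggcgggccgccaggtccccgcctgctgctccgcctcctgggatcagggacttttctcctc
Cd151 window 1: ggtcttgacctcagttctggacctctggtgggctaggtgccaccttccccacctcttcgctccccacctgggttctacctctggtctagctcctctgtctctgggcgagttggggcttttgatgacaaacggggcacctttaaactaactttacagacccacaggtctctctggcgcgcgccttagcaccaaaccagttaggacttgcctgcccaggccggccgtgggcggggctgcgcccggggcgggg

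The CACCC motif occurred 3 times in each Lamb3 window, 3 times in the Col7a1 window and 2 times in the Col17a1 window. It occurred 1 time in Dst window 1 and 1 time in Cd151 window 2, and was not found in Dst window 2 or Cd151 window 1, so Dst, which rose, and Cd151 had the same counts. The motif is common, since 52.0% of 32851 promoter windows of the same length hold it. The NF-kB consensus matched Lamb3 window 2 alone among the 8 windows, starting at base -226 from the start, and 3.9% of all windows hold a match. The Col17a1 window was the only one of the 8 with TATAAA, at -140 and -91 (12.4% of all windows hold it). GGGCGG, the GC box, occurred 2 times in Cd151 window 1, 1 time in the Col7a1 window and 4 times in Dst window 1, against 32.7% of all windows with at least 1 match. The AP-1 motif TGANTCA was found in 0 of the 8 windows and in 6.7% of all windows. All motifs were searched on both strands, and a match describes the letters only.

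Most genes of the anchoring complex gave more signal in Chuk-deleted than in wild-type keratinocytes. By limma with Benjamini-Hochberg adjustment, 7 of the 8 genes rose and 0 fell, where 33.0% of all tested genes rose and 28.3% fell. The 7 were Lama3, Lamb3, Itga6, Itgb4, Col17a1, Col7a1 and Dst, from 1.68-fold to 4.24-fold. Lama3, Lamb3, Itgb4, Col17a1 and Col7a1 were at least 2-fold higher on both arrays, 5 of 8 genes against 1.50% of all tested genes, and none was at least 2-fold lower on both arrays, against 3.21% of all tested genes. The median log2 ratio of the 8 genes was 1.34 (1.10 on array 1 and 1.57 on array 2), and that of all tested genes was 0.02. Cd151 was the only one of the 8 that did not pass the threshold. On the spike-in scale described further on, 5 of the 7 genes passed as higher, Dst and Itga6 did not pass and Cd151 was lower. There 1.98% of all tested genes rose and 91% fell, and Cd151 lay 0.05 above their median. In bulk RNA, a change in RNA per cell and a change in how many cells of a type were present cannot be told apart.

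**Figure D1:**
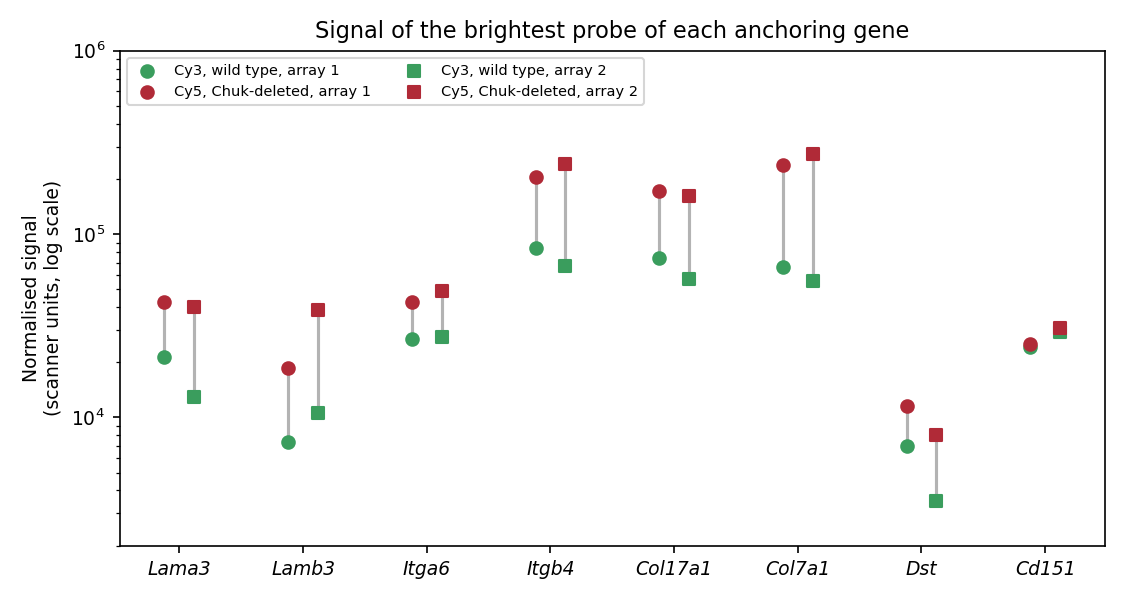
Normalised signal (scanner units, log scale) of the brightest tested probe of each anchoring gene, with Cy3 (wild type) in green and Cy5 (Chuk-deleted) in red, circles for array 1 and squares for array 2, and a grey line joining the channels of one array. In 7 genes both red points lie above both green points, and in Cd151 the channels lie close together on each array.

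Lama3 and Lamb3 rose, with higher signals on both arrays. Laminin-332 is the main ligand of the hemidesmosome, and Lama3 and Lamb3 encode its α3 and β3 chains. Signals are given in scanner units after normalisation within and between arrays. Lama3 (probe A_51_P167489) read 21319 and 12940 in the wild-type channel and 42886 and 39922 in the Chuk-deleted channel of arrays 1 and 2. Its wild-type signal was lower on array 2 while its Chuk-deleted signals were close to each other. The log2 ratios were 1.01 and 1.63 (mean 1.32 ± 0.44, SD, n = 2), a 2.49-fold rise (adjusted p = 0.000386, limma). The other Lama3 probe (A_52_P141739) was not well above background in either channel and was not tested. Lamb3 (probe A_51_P223656) read 7357 and 10574 in the wild-type channel and 18505 and 38679 in the Chuk-deleted channel. Both of its channels were brighter on array 2, the Chuk-deleted channel more so. The log2 ratios were 1.33 and 1.87 (mean 1.60 ± 0.38), a 3.03-fold rise (adjusted p = 0.000131, limma).

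Chains of other basement membrane laminins rose by less than Lama3 and Lamb3 in mean log2 ratio: Lama2 by 0.83, Lamb1 by 0.75, Lamc1 by 0.60, Lama4 by 0.57 and Lama5 by 0.44. Lamb2 (0.14) did not pass the threshold, and Lama1 and Lamc3 were not well above background in any channel. The differences between chains were not tested.

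The integrin genes rose by different amounts. The α6β4 integrin is the laminin receptor of the hemidesmosome, and its β4 chain carries the long cytoplasmic tail that binds plectin. Itgb4 (probe A_51_P408382) read 83754 and 66777 in the wild-type channel and 204678 and 239709 in the Chuk-deleted channel, so the channels did not overlap. Its log2 ratios were 1.29 and 1.84 (mean 1.57 ± 0.39), a 2.96-fold rise (adjusted p = 0.000152, limma). A further probe to the same transcript (A_52_P143287) gave 1.32 and 1.94, a 3.09-fold rise. The dimmer A_52_P459521, designed on a different cDNA, gave 0.51 and 0.52, a 1.43-fold rise. Its array values lie below both array values of the other Itgb4 probes.

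Itga6 rose less than Itgb4 by its brightest probe. That probe (A_51_P262401) read 26803 and 27525 in the wild-type channel and 42534 and 49070 in the Chuk-deleted channel. Its log2 ratios were 0.67 and 0.83 (mean 0.75 ± 0.12), a 1.68-fold rise (adjusted p = 0.000173, limma), the smallest among the 7 genes. Probe A_52_P81270 gave 0.64 and 0.71. The third probe (A_52_P324934), dimmer than both, read 837 and 514 in the wild-type channel against 2838 and 1841 in the Chuk-deleted channel. Its log2 ratios of 1.76 and 1.84 made a 3.48-fold rise (adjusted p = 1.7e-05, limma) and lie above both array values of the other Itga6 probes. The 3 Itga6 probes carry different accessions, and whether they detect different transcripts was not tested. Itga3 and Itgb1, the chains of the laminin receptor outside hemidesmosomes, rose by 0.64 and 0.45 in log2 ratio.

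Cd151 encodes a tetraspanin that associates with the laminin-binding integrins α3β1 and α6β4. It read 24298 and 29176 in the wild-type channel and 25215 and 30828 in the Chuk-deleted channel, so the channels overlapped between arrays. Its log2 ratios were 0.05 and 0.08 (mean 0.07 ± 0.02, 1.05-fold, adjusted p = 0.3, limma), above those of 56.4% of tested genes. Its single probe was brighter than 97.4% of tested probes. Of 21 other tested tetraspanin genes, 6 rose and 9 fell (median -0.06). Tspan1, Tspan6 and Tspan33 fell by 2.52, 0.99 and 0.90 on the log2 scale. After median centring 13 of the 21 rose and 4 fell (median 0.54), where 74.7% of all tested genes rose and 7.25% fell. On the spike-in scale 0 rose and 20 fell (median -0.82), where 1.98% of all tested genes rose and 91% fell.

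Collagen XVII, encoded by Col17a1, spans the basal cell membrane and links the integrin to laminin-332. Col17a1 (probe A_51_P358344) read 74475 and 56794 in the wild-type channel and 170946 and 162194 in the Chuk-deleted channel, with no overlap. Its log2 ratios were 1.20 and 1.51 (mean 1.36 ± 0.22), a 2.56-fold rise (adjusted p = 6.93e-05, limma). The other probe of the same transcript (A_51_P358342) gave 0.80 and 1.14, a 1.96-fold rise.

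Dst encodes the BPAG1 plakins, of which the epithelial form sits in the inner plate of the hemidesmosome, while other forms serve neurons and muscle. Its brightest probe (A_52_P552955) read 7017 and 3494 in the wild-type channel and 11594 and 8027 in the Chuk-deleted channel. Both channels were dimmer on array 2. The log2 ratios were 0.72 and 1.20 (mean 0.96 ± 0.34), a 1.95-fold rise (adjusted p = 0.000574, limma). Dst had 6 probes, more than any of the other 7 genes, and its probes spread widely. Probe A_51_P300434 gave 0.58 and 0.62. Probes A_52_P445253 and A_52_P184304 gave means of 0.26 and 0.19, both past the threshold. Probe A_52_P196350 was not well above background in the wild-type channel of either array and gave 0.57 and 0.45. By the rule for such probes it was at least 1.42-fold higher on average over the arrays. This bound equals its fitted mean fold because its own dim signal exceeded the lowest signal well above background. Array 2 alone lay under that bound. The sixth probe (A_52_P1076613) was not tested. Averaged over its tested probes, Dst had a mean log2 ratio of 0.50, against 0.96 by its brightest probe.

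Other plakin genes did not share one direction. Plec, the hemidesmosomal plectin gene, had 5 tested probes. Of these, 4 were higher and 1 was lower, with mean log2 ratios from -0.34 to 1.36 and 0.59 for the brightest. The desmosomal and cornified envelope plakins fell, with log2 ratios of -1.93 for Evpl, -1.68 for Ppl and -0.91 for Dsp. Eppk1 rose by 0.41 and Macf1 gave -0.08, which did not pass the threshold.

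Col7a1, the gene of the anchoring fibril collagen, had the largest mean rise of the 8 genes. Its probe (A_51_P255395) read 65764 and 55396 in the wild-type channel and 238212 and 275170 in the Chuk-deleted channel. Every Chuk-deleted value was more than 3 times every wild-type value. The log2 ratios were 1.86 and 2.31 (mean 2.08 ± 0.32), a 4.24-fold rise (adjusted p = 4.53e-05, limma). Col7a1 had the highest ratio of the 8 on each array, although its value on array 1 (1.86) lay below that of Lamb3 on array 2 (1.87). The array ranges of Lama3, Lamb3, Itgb4 and Col17a1 overlap each other. Within each array Lamb3 read above Itgb4, and Itgb4 above Lama3 and Col17a1. Lama3 and Col17a1 changed places between arrays. The differences between these genes were not tested and rest on 2 arrays only.

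**Figure D2:**
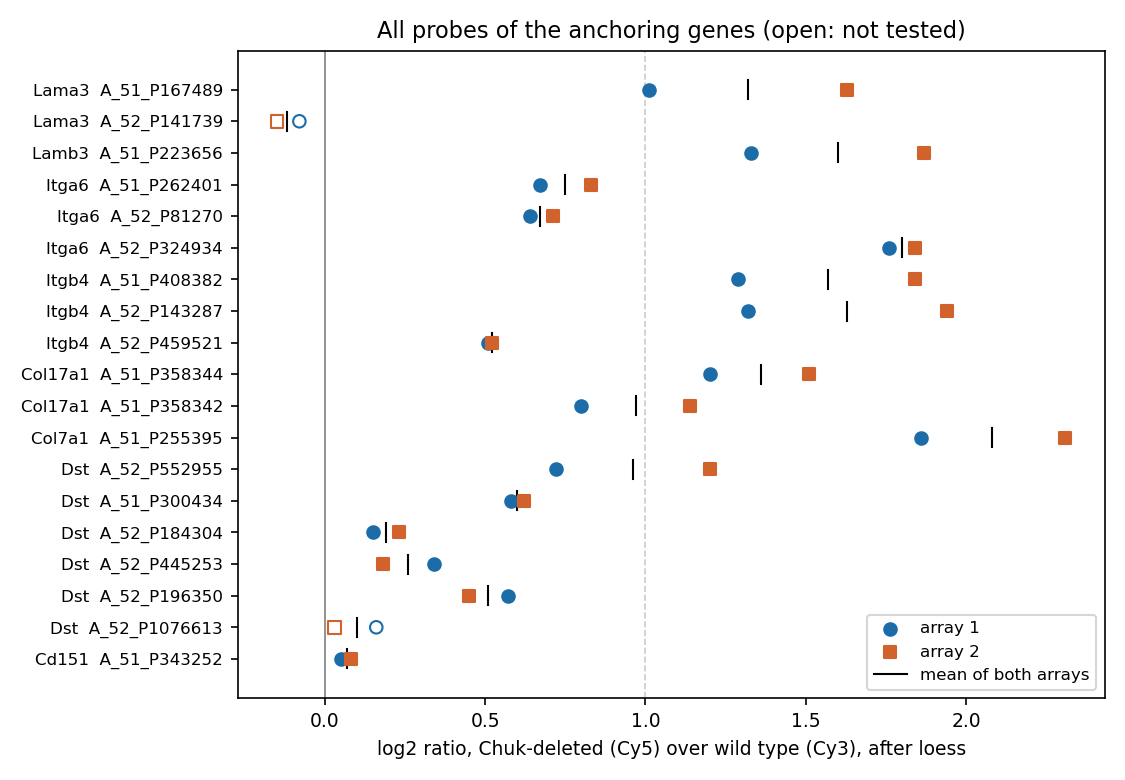
Log2 ratio of Chuk-deleted (Cy5) over wild type (Cy3) for all 19 probes, with circles for array 1, squares for array 2, a bar at the mean, open symbols for the 2 probes not tested and a dashed line at 2-fold. Probes of Itga6, Itgb4 and Dst spread over a wide range within a gene, while both Col17a1 probes and the brighter pair of Itgb4 probes lie close to or above the dashed line.

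Over all probes of the 8 genes, 16 of 17 tested probes were higher and 0 were lower, where 33.4% of all tested probes were higher and 27.9% lower. In 15 of the 17, both Chuk-deleted values lay above both wild-type values, the exceptions being Cd151 and the Dst probe A_52_P184304. The scanner software's own p-value, which rests on the error model within a single array, was under 0.05 on both arrays for 14 of the 17 probes. The exceptions were again Cd151 (0.839 and 0.729) and A_52_P184304 (0.468 and 0.143), and the Dst probe A_52_P445253 (0.0131 and 0.2). None of the 19 probes was saturated on either array.

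All 8 genes had a larger log2 ratio on array 2 than on array 1. The gap ran from 0.03 for Cd151 to 0.62 for Lama3. Among all tested genes 57.3% were larger on array 2, and among the 276 genes with a mean log2 ratio of at least 1 this share was 88.0%, with a median gap of 0.21. The gaps of Lama3 (0.62), Itgb4 (0.55), Lamb3 (0.54), Dst (0.48), Col7a1 (0.46) and Col17a1 (0.32) were above that median, and that of Itga6 (0.17) was below it. Dst and Itga6, with mean log2 ratios of 0.96 and 0.75, lie outside that set of genes. Among the 4534 genes called higher, which include both, 74.9% were larger on array 2. Their median gap was 0.07, and the gap of Itga6 and those of the others just named were above it.

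**Figure D3:**
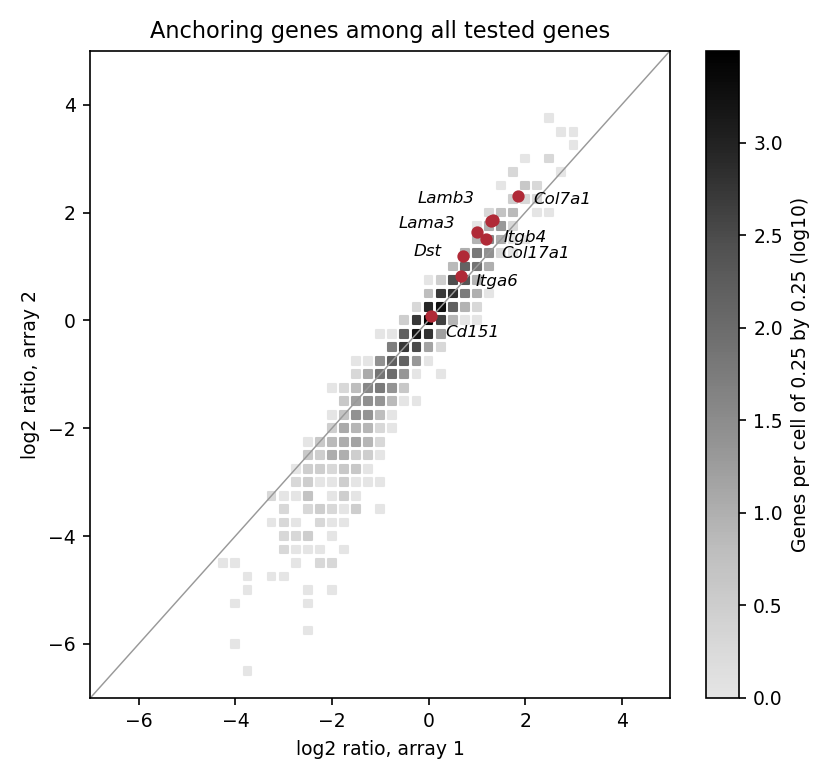
Log2 ratio on array 1 against array 2 for 13758 tested genes (grey, darker where more genes share a cell of 0.25 by 0.25, on a log10 scale) and the 8 anchoring genes (red), with the line of equal ratios. The red points of Lamb3 and Itgb4 overlap, 7 of the 8 lie toward the upper right end of the cloud and Cd151 lies in its centre.

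Enzymes and chaperones that process these proteins, such as the procollagen proteinase Bmp1 and the collagen chaperone Serpinh1, were counted in the same fit. Of 25 tested genes, 19 rose and 2 fell, with a median of 0.51, while on the spike-in scale 2 rose and 13 fell (median -0.25). Tgm2, a transglutaminase that cross-links matrix proteins, rose by 1.81, Bmp1, which cleaves laminin-332 and procollagen VII, by 1.34, and the lysyl oxidase gene Loxl2 by 0.96 on the log2 scale. Of the 7 hemidesmosome partners, 7 rose and 0 fell, with a median of 0.59, while on the spike-in scale 2 rose and 3 fell (median -0.17). Fermt1, which encodes the integrin activator kindlin-1, rose by 1.45, and the basal keratins Krt14 and Krt5, to which the complex is tied, rose by 0.43 and 0.23. Of 21 tested basement membrane genes, 15 rose and 3 fell, with a median of 0.44, while on the spike-in scale 4 rose and 11 fell (median -0.32). They were led by Fbln2 (1.84), Agrn (1.49) and the collagen IV gene Col4a1 (1.28). Focal adhesions are the actin-linked counterparts of hemidesmosomes. Of 21 tested focal adhesion genes, 15 rose and 1 fell, with a median of 0.41, while on the spike-in scale 1 rose and 14 fell (median -0.36). Among them Tns1 rose by 1.14 and Itga5 by 0.81, and Itgb8 gave -1.25 and -0.83 (mean -1.04). Itgb8 was not well above background in the Chuk-deleted channel of either array. The rule for such probes put it at least 2.05-fold lower on average over the arrays, close to its fitted mean, and array 2 alone lay under that.

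**Figure D4:**
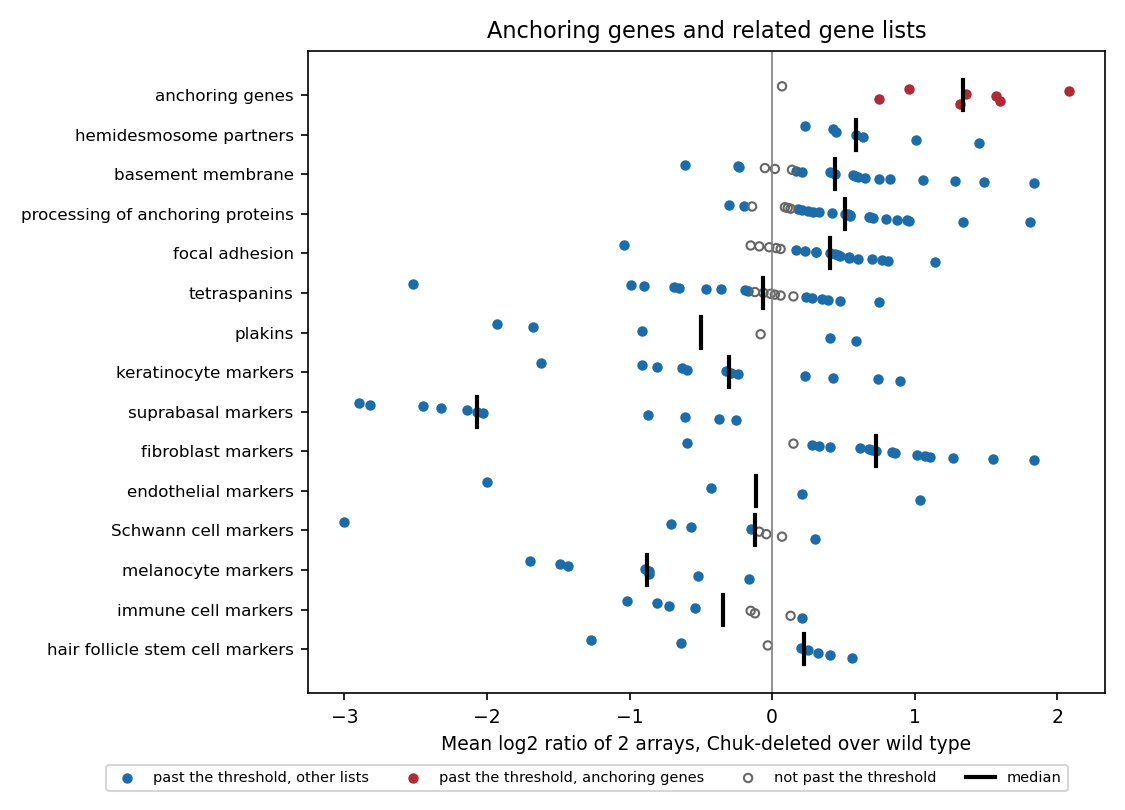
Mean log2 ratio of 2 arrays for each tested gene of the anchoring complex (red) and of 14 related lists (blue), with open circles for genes not past the threshold and a bar at the median of each list. On the loess scale the anchoring genes have a median of 1.34, the hemidesmosome partners 0.59, the fibroblast markers 0.73 and the suprabasal markers -2.07.

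The size of these rises depended on where the zero of the scale was set. The loess scale puts the median of all genes at 0.02. When each array was instead lowered by the mean log2 ratio of its spike-in controls (0.68 and 0.84), the median of all genes was -0.74 and 1.98% of genes rose while 91% fell. This takes the controls to be balanced between the channels on average. The ratios at which they were added were not used, so that was not tested. On that scale Col7a1 (1.32), Lamb3 (0.84), Itgb4 (0.80), Col17a1 (0.59) and Lama3 (0.55) still passed as higher by their brightest tested probes. Dst (0.20) and Itga6 (-0.01) did not pass by theirs, and Cd151 (-0.70) was lower. The other Col17a1 probe (A_51_P358342, 0.21) did not pass there, whereas the dimmest Itga6 probe (A_52_P324934, 1.04) passed as higher. With median centring in place of loess, which leaves a trend with brightness, the median of all genes was 0.55, 74.7% of genes rose and 7.25% fell, and all 8 genes passed as higher, Cd151 at 0.87. The median of the 8 genes lay 1.32 above that of all genes on the loess scale and 1.65 above it after median centring. The brightest 10% of tested genes held 7 of the 8 genes, and relative to the median of that 10% the median of the 8 was 1.33 on the loess scale and 1.40 after median centring. Spike-in scaling moves every gene of an array alike, so there both distances equal those on the loess scale by construction. Of 25 named genes outside the 8 that rose in the partner, basement membrane, plakin, processing, focal adhesion, keratinocyte and fibroblast lists, 9 stayed past the threshold as higher on the spike-in scale, among them Fbln2, Tgm2, Agrn, Fermt1 and Bmp1, and 5 were lower there (Itgb1, Lama5, Krt14, Eppk1 and Krt5).

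**Figure D5:**
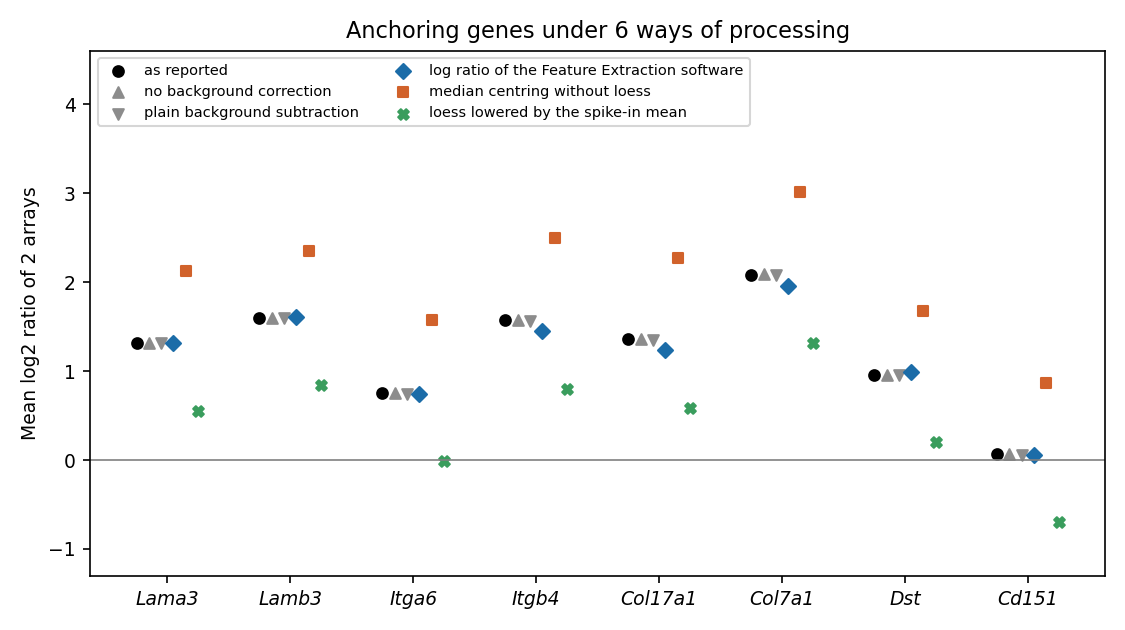
Mean log2 ratio of 2 arrays of each anchoring gene under 6 ways of processing, with a line at 0. Col7a1 is the highest of the 8 in each, median centring lifts all 8 (Cd151 to 0.87), and the spike-in scale lowers all 8, with Itga6 at -0.01 and Cd151 at -0.70.

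Most markers of keratinocytes were lower in Chuk-deleted cells on the loess scale, unlike the anchoring genes. Of 12 keratinocyte markers, 12 were well above background in both channels. Of these, 4 rose (Trp63, Cdh3, Krt14 and Krt5, by 0.90, 0.74, 0.43 and 0.23) and 8 fell, among them Epcam (-1.62) and Jup (-0.91). Their median was -0.31. After median centring 8 rose and 2 fell (median 0.39), on the spike-in scale 0 rose and 10 fell, and by the software's ratio 3 rose and 5 fell. Their summed signal was 720873 and 801357 in the wild-type channel and 753567 and 739440 in the Chuk-deleted channel, so the channels overlapped. The sum was higher in the Chuk-deleted channel on array 1 and lower on array 2. The brightest markers weigh most in such a sum. Suprabasal markers fell in 11 of 11 tested genes, led by Tgm1 (-2.90), Lor (-2.82) and Krtdap (-2.45), and their summed signal was 97208 and 127362 in the wild-type channel against 31830 and 22255 in the Chuk-deleted channel. The part of these shifts in the rise of the anchoring genes was not tested.

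Fibroblast markers were higher beside the anchoring genes. Of 17 tested, 15 rose and 1 fell, with a median of 0.73, while on the spike-in scale 6 rose and 5 fell (median -0.04). Fbln2, also counted above as a basement membrane gene, rose by 1.84, Sparc by 1.55 and Fbn1 by 1.27. The marker that fell was Dcn (-0.60), and Lum (0.15) did not pass the threshold. All 17 were well above background in both channels, and their summed signal was 181983 and 148018 in the wild-type channel and 358653 and 357469 in the Chuk-deleted channel. Col7a1 is also expressed by dermal fibroblasts, and the part of fibroblast RNA in its value was not tested. Melanocyte markers fell in 8 of 8 genes (median -0.88), led by Mlana (-1.70), Pmel (-1.49) and Dct (-1.43), and their summed signal was 49444 and 50241 in the wild-type channel against 20592 and 18002 in the Chuk-deleted channel.

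Markers of the remaining cell types moved both ways on the loess scale. On the spike-in scale, 1 endothelial gene rose and 3 fell, and 0 Schwann cell genes rose and 8 fell. Immune markers gave 0 higher and 8 lower there, and hair follicle markers 0 and 7. After median centring these lists gave, in the same order, 2 higher and 2 lower, 4 and 1, 3 and 4, and 6 and 1. Endothelial markers had 4 of 11 genes tested, with Flt1 at -2.00, Vwf at -0.43 and Egfl7 at 1.04, and Cldn5, Emcn and Tek were not well above background in any channel. Their summed signal was 13784 and 16134 in the wild-type channel and 7842 and 9272 in the Chuk-deleted channel. Schwann cells express Itgb4 and a Dst product as well. Of their 8 tested markers, 1 rose and 4 fell, with Egr2 at -3.00, Pmp22 at -0.71 and Mbp at -0.57. Their summed signal was 22362 and 26932 in the wild-type channel and 13484 and 16096 in the Chuk-deleted channel. Of 8 tested immune markers, 1 rose and 4 fell (Lyz2 -1.02, Csf1r -0.81, Fcgr3 -0.72), and Cd207, Cd3g and Itgam were not well above background. Their summed signal was 5270 and 5431 against 4022 and 4058. Of 8 tested genes listed as hair follicle stem cell markers, 5 rose and 2 fell, with Sox9 at -1.27, Cd34 at -0.64 and Lrig1 at 0.56. Their summed signals were 47818 and 47377 against 46146 and 44826. The 8 include Tcf4 (0.41, higher) and Tcf3 (-0.03, not past the threshold), matched by current symbol. Those symbols name other genes than the stem cell factors formerly called TCF3 and TCF4. The counts and sums of this list therefore hold 2 genes that are not such markers.

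The tested genes outside the 8 whose pair of array ratios lay nearest to their median pair (1.10 and 1.57, by Euclidean distance over the 2 arrays) were Pi4k2b, Ly6a, Bmp1, Cyp26b1 and Trav3-3, at distances of 0.030 to 0.083. Of these, Bmp1 read 1.16 and 1.52 and belongs to the processing list. Pi4k2b read 1.08 and 1.55, and Ly6a, a cell surface antigen gene, read 1.10 and 1.62.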

How the data were processed

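Per the file headers, the deposited scanner output of Agilent Feature Extraction 9.1.3.1 holds spot intensity means and local background intensity medians, uncorrected, flags of 0 or 1, a log10 ratio of dye-normalised Cy5 over Cy3 and a p-value for that ratio from an error model within 1 array. The authors' deposited series matrix values equalled the log10 ratio within 0.005. In R 4.3.3, limma 3.58.1 corrected background (normexp, offset 50), normalised log2 ratios by loess with control spots at weight 0, and tested the 23540 probes that on both arrays had 1 or both channels well above background (lmFit and eBayes, mean against 0, two-sided, Benjamini-Hochberg over all tested probes, threshold 0.05). Outlier spots (51 and 18) were left out. Each probe had 1 residual and 5.14 prior degrees of freedom. An exact two-sided test of 2 arrays cannot go below p = 0.5. Signals per channel were taken after loess and Aquantile normalisation. The data.table package (version 1.17.8) was used for joins. The scripts were tested on simulated data.

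Where several probes of a gene were tested, the brightest on average stood for it. Names came from RefSeq genes of GRCm38.p6: 16148 tested probes matched by accession, 4722 by symbol, 629 kept the file's name and 2041 had none. Named genes are the 8 genes with every probe, the 3 largest changes past the threshold of each list, and the 5 genes of nearest ratios; laminin chains, keratins and a few others were added after their values were seen. Some genes under this rule are not reported here. The 8 genes and the 14 lists were chosen with earlier results of these data known, so no count of theirs is independent evidence. The number of arrays limits the precision. Background correction, normalisation, the filter on dim probes, the choice of probe and each array in turn were varied.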

Additional observations from a re-analysis of the deposited data

How the results depend on the processing

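Under the alternatives, 84 values of the 8 genes kept their direction and, where a test was left, their call, while 1 became stronger (Cd151 after median centring, 0.87), 1 weaker (Dst on the spike-in scale, 0.20) and 2 reversed. Many of the 84 had little room to differ. The filters on dim probes left the ratios as they were. Lama3, Lamb3, Col7a1 and Cd151 had 1 tested probe each, so the choice of probe left their ratios unchanged. Leaving out an array could change a direction only where the arrays differed in sign. Among all genes, median centring gave 10271 higher and 998 lower genes and spike-in scaling gave 272 higher and 12522 lower, against 4534 and 3888 as reported. The median of the 8 genes was 2.20 after median centring and 0.57 on the spike-in scale. On the spike-in scale 1 of the 8 was at least 2-fold higher on both arrays, 1 was lower, 7 probes were higher and 5 were lower. On that scale the ratio reversed for Cd151 (-0.70), Itga6 (-0.01, with probes at -0.01 and -0.09), the Itgb4 probe A_52_P459521 (-0.25) and the Dst probes A_51_P300434 (-0.17), A_52_P184304 (-0.57), A_52_P196350 (-0.25) and A_52_P445253 (-0.50). The third Itga6 probe, A_52_P324934, stayed past the threshold as higher there (1.04). The Col17a1 probe A_51_P358342 kept its direction on that scale but no longer passed (0.21). Each array was lowered by 0.68 or 0.84 there, which moves every gene alike. By the software's own ratio, the Dst probe A_52_P184304 (0.25, adjusted p = 0.0759, limma) no longer passed, and the cause was not tested. Without replicate 1 or 2 the median of the 8 genes ranged from 1.10 to 1.57 and the number at least 2-fold higher from 5 to 6, with no test left. The choice of probe moved Itgb4 to 0.52, Itga6 to 1.80 and Dst to 0.51 with the dimmest tested probe, all still past the threshold. Under median centring and spike-in scaling limma's prior degrees of freedom were infinite, so p-values there rest only on a spread pooled over all probes. No paired analysis was possible because the arrays form a single group of 2, beyond the pairing of channels within an array that each log ratio already holds. Dim probes limit Dst and Lama3, each with 1 probe not well above background in either channel.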
